A study of Mus musculus with 4 samples.

Results

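Fatty acid oxidation and thermogenic fat genes were followed in the epididymal fat, a visceral white depot, of wild type and CD1d-null mice. The set was a list of 35 genes chosen by function: the carnitine shuttle, the enzymes of beta-oxidation, the electron carriers behind them, the transcription factors and coactivators of oxidative metabolism, and the markers and uncoupling proteins of thermogenic fat. Of these, 31 were read by a probe set of their own, out of 18820 genes named on the array. Cpt1b and Acadvl shared their probe sets with another gene symbol, and no probe set was named for Ucp2 or Gk in the annotation used here. The levels of these 4 genes were not analysed here.

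Gene expression was measured on 4 arrays. The wild type (WT) mice were C57BL/6J, and the CD1d-null (KO) mice, CD1d-/-, carried the null allele after 10 to 12 backcross generations to that strain. Mice ate chow to an age of 10 to 11 weeks and then a low-fat diet (10 kcal% fat) or a high-fat diet (45 kcal% fat) for 18 to 19 weeks. The groups were WT on the low-fat diet (1 array), WT on the high-fat diet (1 array) and KO on the low-fat diet (2 arrays, called KO array 1 and KO array 2). A high-fat KO group was not analysed here. The diet comparison and the KO comparison share the single WT low-fat array, so an unusual value there enters both. RNA of 4 to 6 mice per group was pooled, so an array shows a pool and not the spread between animals, and whether the KO arrays came from separate pools is not stated in the labels. P-values therefore measure only the spread between the KO arrays, which may be technical. The allele was null in the whole animal and not in fat alone.

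Fatty acids enter mitochondria as carnitine esters, are shortened by a repeating cycle of dehydrogenation, hydration, a further dehydrogenation and thiolysis, and pass their electrons to the respiratory chain. White fat stores fat and oxidises little of it, whereas brown and beige adipocytes burn it for heat through UCP1, a protein that lets protons leak across the inner mitochondrial membrane. The coactivator PGC-1alpha (Ppargc1a) and the nuclear receptors PPARalpha and ERRalpha drive the genes of this machinery, and PRDM16 and EBF2 give an adipocyte its thermogenic identity. Epididymal fat is a white depot known for few beige cells.

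A level below is a log2 intensity, and a difference is between such levels unless it is given as a fold. The median intensity of an array lay between 51.1 and 52.2, and the number of arrays limits the precision. Cd1d1, the gene lost in the KO mice, read 11.80 on both WT arrays against 3.74 and 3.98 on KO arrays 1 and 2. This checks the genotype labels and not the diet labels. Of the 31 members, 26 had a mean level of at least 5.45, the limit set for testing, and 5 lay below it (Ucp1, Dio2, Tbx1, Tmem26 and Esrrg). The median difference of the 11292 tested genes from the WT low-fat array was 0.05 for WT high-fat, with −0.17 for the first KO array and −0.02 for the second, so that small negative values on KO array 1 are read against this shift. Epididymal duct transcripts stood out on the WT low-fat array, with a summed intensity of 18601 over 15 markers against 275, 1155 and 2886 on the WT high-fat array and KO arrays 1 and 2, and their part in the differences from that array was not tested.

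On the high-fat diet, WT fat differed little in these genes: Cpt1a, which commits fatty acids to oxidation, was 1.64-fold higher, and Cidea, which coats lipid droplets and marks thermogenic adipocytes, was 1.61-fold lower. These were the 2 of 26 tested members (7.69%) at least 1.5-fold apart, against 11.5% of all tested genes, and with 1 array per diet there was no test. In KO fat on the low-fat diet no member passed the test, and the lowest p-values belonged to Cidea, Ebf2 and Ppargc1a, all lower on both KO arrays than on the WT low-fat array. Some oxidation enzymes differed between the KO arrays, with Cpt1a and Acadm below WT low-fat on KO array 1 and above it on KO array 2.

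**Figure D1:**
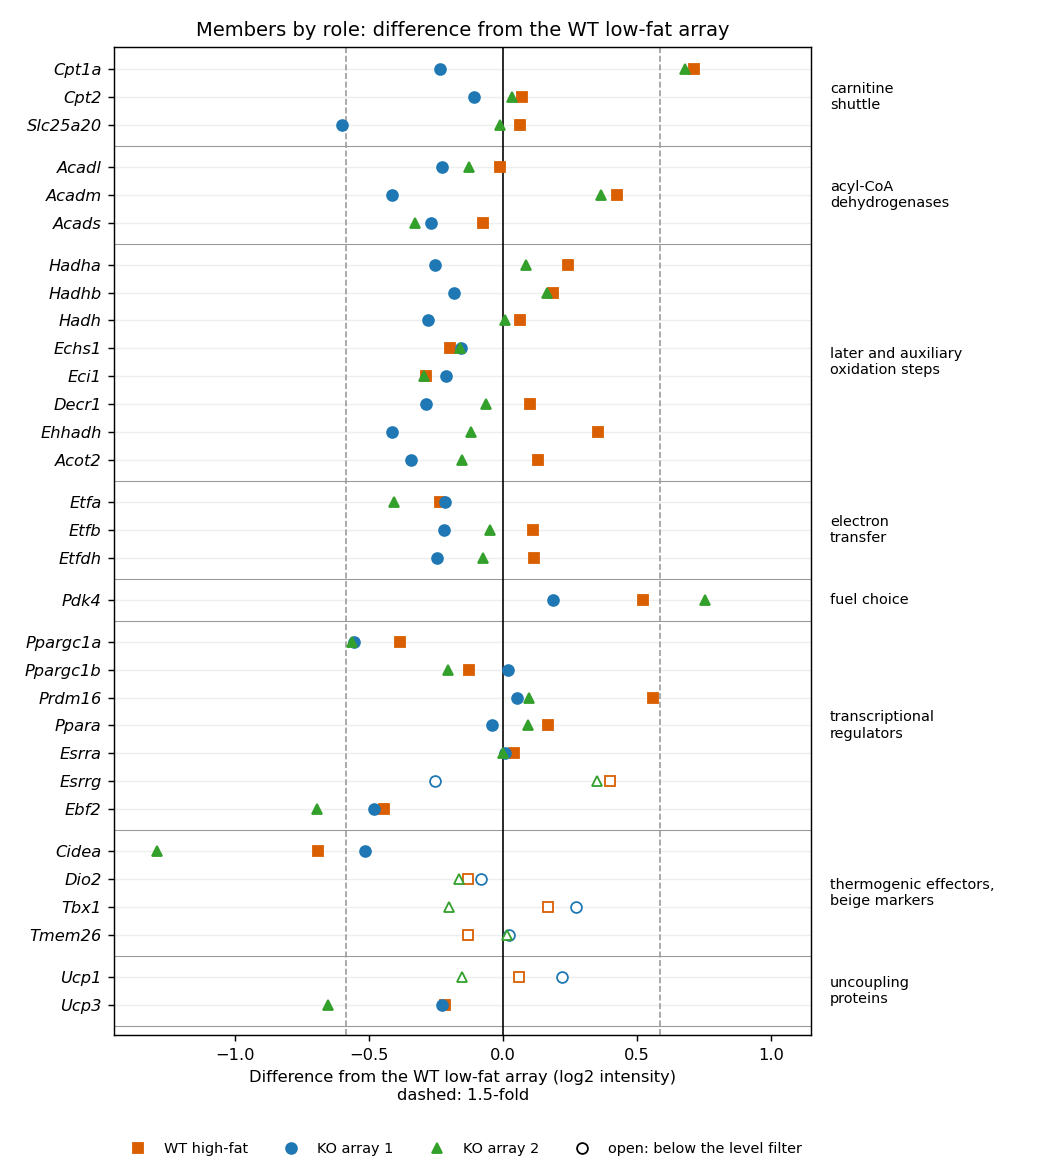
Each row is a member, grouped by role, and each point its log2 intensity minus that on the WT low-fat array (squares, WT high-fat array; circles, KO array 1; triangles, KO array 2); open points are members below the level filter. Of the 17 oxidation enzymes (the upper 4 groups), 17 lie left of the zero line on KO array 1, where all tested genes had a median of −0.17, and Cidea on KO array 2 lies farthest left, at −1.29.

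The carnitine shuttle brings long-chain fatty acids into mitochondria. Cpt1a, carnitine palmitoyltransferase 1A of the outer membrane and the rate-controlling step, read 9.89 on the WT low-fat array, 10.60 on the WT high-fat array, 9.65 on the first KO array and 10.57 on the second. The WT high-fat array and KO array 2 were thus high and close together, and the KO arrays lay on either side of WT low-fat. Over all tested genes the WT high-fat array and KO array 2 were also the closest pair of arrays, with a correlation of 0.981. The KO arrays correlated at 0.943. The likeness of the WT high-fat array and KO array 2 was therefore not particular to the genes described here. Slc25a20, the carnitine-acylcarnitine translocase of the inner membrane, read 9.36, 9.42, 8.76 and 9.35 in the same order, low on KO array 1 and level on the other 3 arrays. Cpt2, which hands the fatty acid back to coenzyme A inside the mitochondrion, spanned only 0.18, from 9.98 on KO array 1 to 10.16 on the WT high-fat array. In all 3 of these genes the WT high-fat array was highest and KO array 1 lowest. Among tested genes 44.0% were highest on the WT high-fat array and 56.7% lowest on KO array 1.

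Acyl-CoA dehydrogenases open each turn of the cycle, each for its own chain length. Acadm, the medium-chain enzyme, read 11.36 on the WT low-fat array, 11.78 on the WT high-fat array, 10.94 on the first KO array and 11.72 on the second. As for Cpt1a, the KO arrays lay on opposite sides of WT low-fat, 1.72-fold apart. The long-chain enzyme Acadl read 11.06, 11.05, 10.83 and 10.93 in the same order, with the WT arrays level and both KO arrays slightly below them. Acads, for short chains, read 10.17, 10.09, 9.90 and 9.84, and was also lower on both KO arrays, by 0.27 and 0.33, sizes of which 0.17 and 0.02 were the shift of all tested genes on those arrays.

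The promoters of Cpt1a and Acadm, the enzymes farthest apart between the KO arrays, and of Pdk4, which was high on the WT high-fat array and KO array 2, are given here with that of Hadhb, which shares its upstream stretch with Hadha. Each sequence is the 250 bases before the start site, read 5′ to 3′ on the gene's strand (RefSeq, GRCm38.p6); capitals mark AGGTCA, the core bound by nuclear receptors such as PPARs and ERRs, and GGGCGG, a GC box, on either strand, so that a match on the other strand appears as its reverse complement. They lie at chr19:3323051-3323300 (plus strand, Cpt1a), chr3:153944644-153944893 (minus strand, Acadm), chr6:5496279-5496528 (minus strand, Pdk4) and chr5:30155003-30155252 (plus strand, Hadhb).
Cpt1a: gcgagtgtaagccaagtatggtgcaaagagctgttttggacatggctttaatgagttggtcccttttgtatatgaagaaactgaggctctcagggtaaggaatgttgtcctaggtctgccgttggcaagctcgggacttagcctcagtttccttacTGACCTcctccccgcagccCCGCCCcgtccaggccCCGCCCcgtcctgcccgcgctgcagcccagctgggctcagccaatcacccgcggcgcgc
Acadm: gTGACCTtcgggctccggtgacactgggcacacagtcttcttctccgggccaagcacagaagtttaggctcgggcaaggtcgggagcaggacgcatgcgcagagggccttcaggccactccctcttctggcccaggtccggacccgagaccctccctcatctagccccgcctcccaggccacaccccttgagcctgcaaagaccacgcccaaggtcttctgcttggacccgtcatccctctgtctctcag
Pdk4: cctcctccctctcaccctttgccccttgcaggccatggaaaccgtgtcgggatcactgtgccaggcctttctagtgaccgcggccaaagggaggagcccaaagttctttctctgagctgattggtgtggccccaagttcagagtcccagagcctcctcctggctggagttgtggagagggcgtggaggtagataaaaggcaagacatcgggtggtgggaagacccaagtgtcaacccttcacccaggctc
Hadhb: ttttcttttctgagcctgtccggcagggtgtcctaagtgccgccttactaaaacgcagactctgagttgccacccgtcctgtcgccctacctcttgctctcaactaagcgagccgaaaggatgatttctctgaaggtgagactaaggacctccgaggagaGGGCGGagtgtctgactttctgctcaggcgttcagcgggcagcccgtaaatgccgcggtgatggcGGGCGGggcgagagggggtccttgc
In these windows AGGTCA occurred 1 time each for Cpt1a and Acadm, and GGGCGG 2 times each for Cpt1a and Hadhb. Promoters of 30 of the 35 members were in the table (Cidea, Cpt1b, Decr1, Ebf2 and Ppargc1b were not). AGGTCA was in 6 of these 30 genes (Acadm, Acadvl, Cpt1a, Echs1, Ucp1 and Ucp3) and in 14.0% of all 32851 promoters; GGGCGG was in 19 genes and in 32.7% of promoters. The ERR element TCAAGGTCA, which holds AGGTCA within it, was in 0 of the 30 and in 0.387% of promoters, and the cyclic AMP response element TGACGTCA in 1 of the 30, Dio2, and in 1.55%. Members were counted by gene and the background by promoter, so the shares are not like for like. A match describes the letters only, and absence from this window says nothing of sites elsewhere.

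The later steps of the cycle are carried out on long chains by the mitochondrial trifunctional protein, whose alpha and beta subunits are Hadha and Hadhb. These genes lie head to head, with 272 bases between their start sites, and the Hadhb sequence above is the 250 of these bases nearest to the Hadhb start. Hadha read 10.83 on the WT low-fat array, 11.08 on the WT high-fat array, 10.58 on the first KO array and 10.92 on the second, and Hadhb 10.69, 10.88, 10.51 and 10.86. Both subunits had the same order of arrays: highest on WT high-fat, then KO array 2, WT low-fat and KO array 1. A second probe set of Hadhb gave 10.66, 10.80, 10.47 and 10.80, close to the first on each array.

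The short-chain enzymes Hadh and Echs1 spanned 0.34 and 0.20 over the arrays, where Hadha and Hadhb spanned 0.50 and 0.37. Hadh, the short-chain hydroxyacyl-CoA dehydrogenase, read 12.31, 12.37, 12.03 and 12.31 on the WT low-fat array, the WT high-fat array, KO array 1 and KO array 2, low on KO array 1 alone. Echs1, the enoyl-CoA hydratase, was at 10.31 on the WT low-fat array and between 10.11 and 10.15 on the other 3. Eci1 and Decr1 prepare unsaturated fatty acids for the cycle. Eci1, an enoyl-CoA isomerase, was highest on WT low-fat, at 10.54, against 10.25, 10.33 and 10.24. Decr1, the dienoyl-CoA reductase, ranged from 9.92 on KO array 1 to 10.30 on the WT high-fat array.

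Ehhadh, the bifunctional enzyme of peroxisomal beta-oxidation, read 8.97 on the WT low-fat array, 9.32 on the WT high-fat array, 8.55 on the first KO array and 8.85 on the second. Acot2, a mitochondrial acyl-CoA thioesterase, read 9.20, 9.33, 8.85 and 9.04 in that order. Both were highest on the high-fat diet and lowest on KO array 1, with KO array 2 between KO array 1 and WT low-fat.

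Electron transfer flavoprotein and its dehydrogenase take the electrons of the acyl-CoA dehydrogenases to ubiquinone. Etfa, its alpha subunit, read 10.44 on the WT low-fat array and 10.20, 10.22 and 10.03 on the WT high-fat array and KO arrays 1 and 2. Etfb, the beta subunit, read 11.72, 11.83, 11.50 and 11.67, and Etfdh, the ubiquinone oxidoreductase, 9.55, 9.66, 9.30 and 9.47. The subunits of this heterodimer thus differed in order, with Etfa highest on WT low-fat and Etfb on WT high-fat.

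Over the 17 oxidation enzymes with a probe set, all tested, the WT high-fat array was higher than WT low-fat in 12 and lower in 5, with a median of 0.10 against 58.2% of tested genes higher and a median of 0.05. On KO array 1 they were lower in 17 of 17, with a median of −0.25, against 77.6% of tested genes lower and a median of −0.17. On KO array 2 they were higher in 6 and lower in 11, with a median of −0.06 against 53.2% of tested genes lower and a median of −0.02. After the arrays were centred on their medians, 14 of 17 were lower on KO array 1, with a median of −0.04 beside 0.03 for all tested genes. Centring also left 7 of the 17 lowest on KO array 1, from 13 without it, where 56.7% of tested genes were lowest there without centring. Quantile normalization, which gives all arrays the same distribution of values, kept 17 of 17 lower on KO array 1 and 13 lowest there. Their median was then −0.19, beside −0.10 for all tested genes, so the result depends on the scaling chosen. Shares of all tested genes after centring or quantile normalization were not counted, so the member counts after these steps have no background.

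Pdk4, pyruvate dehydrogenase kinase 4, shuts pyruvate out of oxidation so that fatty acids are used instead, and is a classical PPAR and glucocorticoid target. It read 11.17 on the WT low-fat array, 11.69 on the WT high-fat array, 11.35 on the first KO array and 11.92 on the second. WT low-fat was the lowest of the 4 arrays, and the KO mean was 11.64 ± 0.40 (SD, n = 2), 1.39-fold above it. Among tested genes 7.91% were lowest on the WT low-fat array. The difference of 0.47 had a standard error of 0.37 in limma (95% interval −0.45 to 1.39), an adjusted p = 1 and higher values on 2 of 2 KO arrays.

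**Figure D2:**
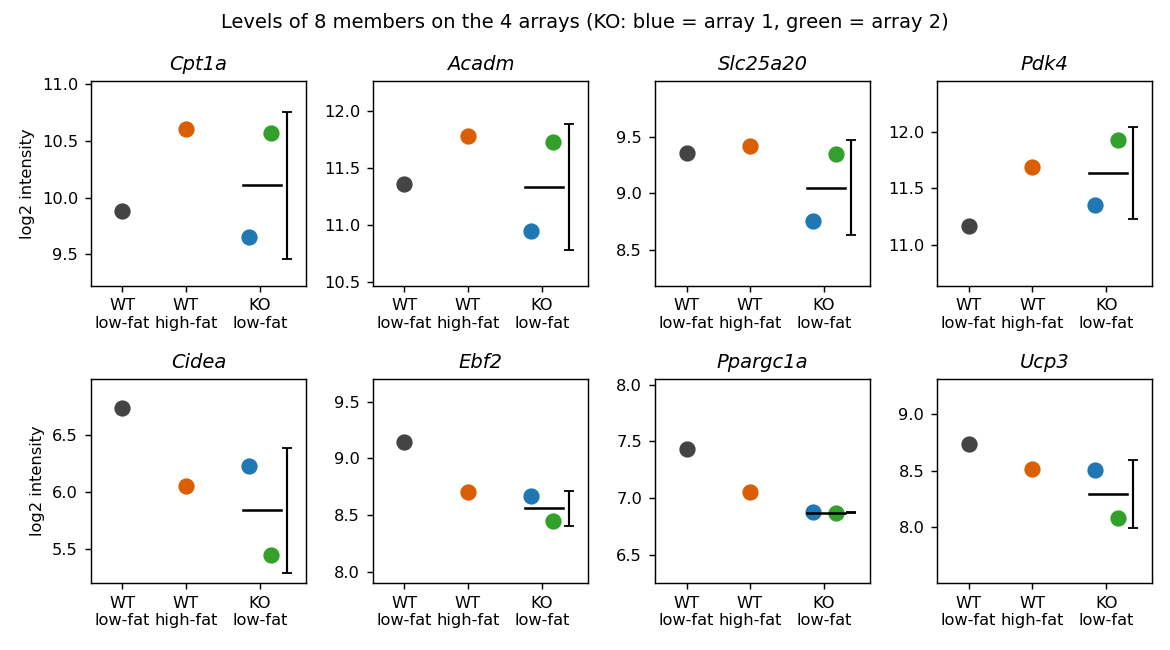
Log2 intensity of 8 members on the 4 arrays, with every panel spanning the same range of the log2 scale; dark grey, WT low-fat; orange, WT high-fat; blue and green, KO arrays 1 and 2, with the KO mean (line) and SD (bar, n = 2). In Cpt1a and Acadm the WT high-fat value lies beside KO array 2, and in Cidea, Ebf2, Ppargc1a and Ucp3 the WT low-fat value is the highest of the 4.

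Among the regulators, Ppargc1a, the coactivator PGC-1alpha, read 7.43 on the WT low-fat array, 7.05 on the WT high-fat array, 6.88 on the first KO array and 6.87 on the second. The KO arrays were nearly equal, at 6.87 ± 0.01 (SD, n = 2), and 1.48-fold below WT low-fat. Its second probe set gave 7.02, 6.93, 6.40 and 6.59, again with both KO arrays below both WT arrays. In limma the difference of −0.56 had a standard error of 0.31, a 95% interval of −1.32 to 0.20 and an adjusted p = 1, and it was −0.47 relative to the median of all tested genes.

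Ebf2, the early B cell factor that marks brown and beige precursors, read 9.15 on the WT low-fat array against 8.71, 8.67 and 8.45 on the WT high-fat array and KO arrays 1 and 2. Its KO mean was 8.56 ± 0.15 (SD, n = 2), with a standard error of 0.32 for the difference of −0.59 and an adjusted p = 1 in limma. WT low-fat was highest and the other 3 arrays lay close together. A second Ebf2 probe set read 4.31, 4.25, 4.32 and 4.06 in the same order, near the bottom of the range, where values set no order.

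The other regulators were flat or apart on 1 array. Ppargc1b, the related coactivator PGC-1beta, stayed between 6.30 and 6.53. Ppara, the fatty acid-sensing nuclear receptor, stayed between 7.03 and 7.24, and Esrra, which encodes ERRalpha, between 6.92 and 6.96, the narrowest range of the 31 members at 0.04. Prdm16, the switch of brown fat identity, read 5.53 on the WT low-fat array, 6.09 on the WT high-fat array and 5.58 and 5.63 on the KO arrays, high on the WT high-fat array alone. Its second probe set gave 5.42, 5.57, 5.47 and 5.46, a diet difference of 0.15 where the first gave 0.56. Esrrg, which encodes ERRgamma, was below the level filter, at 4.99, 5.39, 4.74 and 5.34, and its 1.52-fold gap between the KO arrays lies where intensities are close to the floor.

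Cidea read 6.74 on the WT low-fat array, 6.05 on the WT high-fat array, 6.22 on the first KO array and 5.45 on the second. WT low-fat was the highest and KO array 2 the lowest, 2.45-fold below it. The KO mean, 5.84 ± 0.55 (SD, n = 2), was 1.87-fold below WT low-fat; the difference of −0.90 had a standard error of 0.42, a 95% interval of −1.94 to 0.14 and an adjusted p = 1 in limma. It was the lowest p among the members, 0.0768 before adjustment in limma's fit over all tested genes. In bulk tissue fewer cells of a type and less RNA per cell cannot be told apart.

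The other thermogenic effectors and beige markers were below the level filter. Ucp1 read 3.88 on the WT low-fat array, 3.94 on the WT high-fat array and 4.10 and 3.73 on KO arrays 1 and 2, at or below the 13.2 percentile of gene levels on each array. Dio2, the deiodinase that activates thyroid hormone in brown fat, lay between 4.57 and 4.73, and the beige markers Tbx1 and Tmem26 between 4.84 and 5.31 and between 4.95 and 5.10. Levels this low set no order between arrays, and no fold is given. The labelled tissue showed its defining adipocyte marker on all 4 arrays, with Adipoq, which encodes adiponectin, between 13.03 and 13.19. Of the 13 thermogenic genes and regulators with a probe set, 8 passed the level filter. Among these 8, 4 were highest on the WT low-fat array (27.9% of tested genes) and 5 lowest on KO array 2 (23.7%). After centring, 4 of the 8 were highest and 4 lowest on these arrays (shares of tested genes not counted). Their median difference from WT low-fat was −0.17 on the high-fat diet and −0.13 and −0.39 on KO arrays 1 and 2, beside 0.05, −0.17 and −0.02 for all tested genes. The median on KO array 1 changed sign with centring, to 0.07 beside 0.03 for all tested genes. After quantile normalization it kept its sign, at −0.04 beside −0.10.

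Ucp3, the uncoupling protein of muscle and brown fat, read 8.73 on the WT low-fat array, 8.52 on the WT high-fat array, 8.51 on the first KO array and 8.08 on the second. It was highest on WT low-fat and lowest on KO array 2, 1.57-fold below. Of 16 markers of striated muscle, 8 were below the level filter (Myh1, Myh2, Myh4, Myh7, Tnnt3, Tnnc2, Mylpf and Mb). The summed intensity of the 16 was 2165, 1744, 2107 and 1509 on the WT low-fat array, the WT high-fat array and KO arrays 1 and 2, in the same order of arrays as Ucp3 apart from the middle pair; skeletal actin Acta1 read 10.04, 9.26, 9.90 and 8.88. The other markers did not all follow Acta1. Of the 8 tested markers, 4 were above and 4 below WT low-fat on KO array 2, with a median difference of 0.0003. By size, 2 of them were at least 1.5-fold higher there and 2 lower. The part of muscle RNA in the Ucp3 values was not tested.

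The second question of the design was whether fat without CD1d differed from WT fat on the low-fat diet. Of the 26 tested members 0 passed limma's threshold of 0.05 after Benjamini-Hochberg adjustment, and 0 had an unadjusted p under 0.05, against 5 of 11292 genes (0.0443%) past the threshold and 92 at an unadjusted p under 0.05. Those 5 were Cd1d1 and the epididymal genes Epp13, Lcn5, Spint4 and Spint5. Adjusted p was 1 for each of the 26. Standard errors ran from 0.31 to 0.45, so the 95% intervals, not adjusted for the number of genes, reached 0.76 to 1.13 to either side, or 1.70-fold to 2.19-fold. The smallest true change that these arrays could detect was not computed. An observed difference smaller than the reach of its interval had an unadjusted p above 0.05 in limma. A larger one could also miss the adjusted threshold. Of 13 tested epididymal markers, with a median KO difference of −3.67, 4 passed it. By size, 0 members were at least 1.5-fold apart from WT low-fat on both KO arrays, where 1.35% of tested genes were. On KO array 1 alone 1 tested member was (Slc25a20, lower; 6.95% of tested genes), and on KO array 2 alone 5 were: Cpt1a and Pdk4 higher, Cidea, Ebf2 and Ucp3 lower (19.2% of tested members; 10.1% of tested genes). Without regard to size, 15 of 26 tested members were below WT low-fat on both KO arrays and 3 above it, where 40.5% and 9.74% of tested genes were.

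The KO pair sets the error of that test, and some members were among the genes that set it. Between KO arrays 1 and 2 the tested members at least 1.5-fold apart were Cpt1a (1.89-fold), Acadm (1.72-fold) and Slc25a20 (1.51-fold), higher on KO array 2, and Cidea (1.71-fold), lower on it. These 4 of 26 (15.4%) compare with 19.3% of tested genes. With Esrrg, below the level filter, 4 members were higher and 1 lower, and after centring of the arrays 2 were higher and 3 lower. After quantile normalization 3 were higher and 1 lower. By contrast Ppargc1a, Esrra, Echs1 and Tmem26, the last below the level filter, differed by 0.01 or less between the KO arrays without centring. After it the difference of KO array 2 from KO array 1 was −0.20 for each. The second Ppargc1a probe set had a difference of 0.19 without centring. The oxidation enzymes were higher on KO array 2 in 13 of 17 (8 of 17 after centring, 13 of 17 after quantile normalization). The tested thermogenic genes and regulators were lower in 6 of 8 (8 of 8 after centring, 6 of 8 after quantile normalization). Without either step, 64.3% of tested genes were higher and 35.7% lower. The shares of tested genes after either step were not counted.

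**Figure D3:**
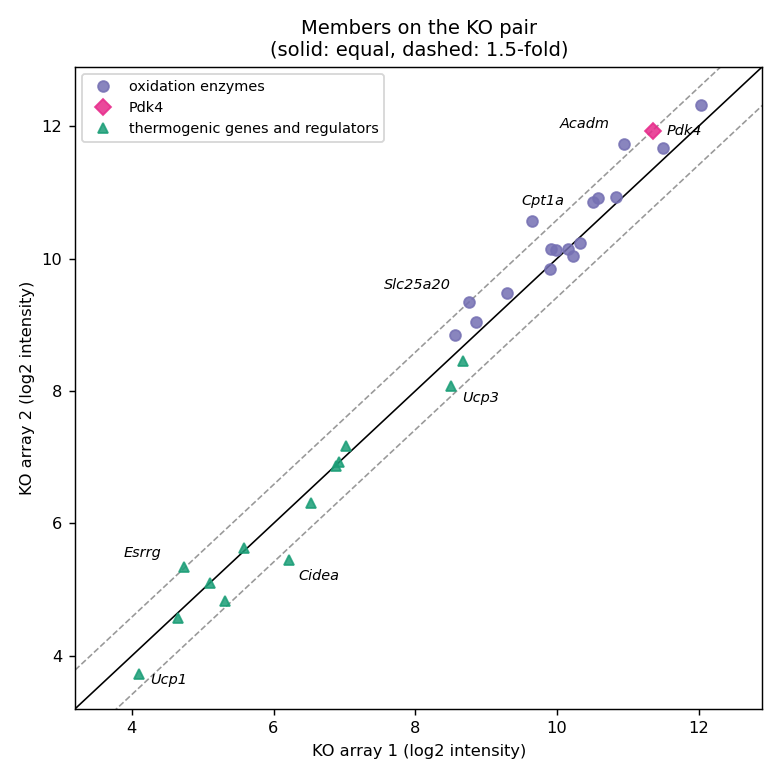
Level of each of the 31 members on KO array 1 (horizontal, log2 intensity) and KO array 2 (vertical), with the line of equality and dashed lines at 1.5-fold; circles, oxidation enzymes; diamond, Pdk4; triangles, thermogenic genes and regulators. Cpt1a, Acadm, Slc25a20 and Esrrg lie above the upper dashed line and Cidea below the lower.

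Macrophage markers differed between the same arrays. Their summed intensity over 16 markers was 10704 on the WT low-fat array, 22745 on the WT high-fat array, 8810 on the first KO array and 20166 on the second. Of the 16, 12 were at least 1.5-fold higher on KO array 2 than on KO array 1, where 1674 of the 11292 tested genes were. Gpnmb, a glycoprotein of lipid-laden macrophages, read 8.12, 11.59, 7.44 and 11.21. The Cpt1a, Cpt2, Acadm, Hadha, Hadhb and Hadh values had this order of arrays too, as did Ppara and, below the level filter, Esrrg. How many of all tested genes had this order was not counted, so the match has no background share. Of all tested genes 44.0% were highest on the WT high-fat array and 56.7% lowest on KO array 1. The part of macrophages in the member values was not tested. Of the 14 adipocyte identity markers the median difference from WT low-fat was 0.02, −0.02 and −0.01 on the WT high-fat array and KO arrays 1 and 2, while single genes of that list were high on the WT high-fat array and KO array 2: Lep, which encodes leptin, read 11.85, 12.85, 11.97 and 12.93, and Gpd1, which makes glycerol 3-phosphate for triglyceride, 11.30, 12.25, 10.93 and 12.19. Smooth muscle markers went the other way, with medians of 0.96 and −0.58 on KO arrays 1 and 2, and their part in the member values was not tested. The endothelial list stayed within 0.04 of WT low-fat by its median, and the mesothelial list had medians of −0.26, −0.44 and −0.34.

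Other genes of the same pathways gave a background to the members, from lists drawn up by function. None of their tested genes passed limma's adjusted threshold for KO against WT low-fat (0 of 15 mitochondrial, 0 of 15 peroxisomal, 0 of 11 uptake and activation, 0 of 3 ketone body, 0 of 22 thermogenic, 0 of 22 regulatory and 0 of 10 PPAR target genes; 1 of them, Vnn1, had an unadjusted p under 0.05). Among the mitochondrial genes, Acacb, whose malonyl-CoA inhibits the carnitine shuttle, read 9.79 on the WT low-fat array against 9.16, 9.67 and 9.29 on the WT high-fat array and KO arrays 1 and 2. Mlycd, which degrades malonyl-CoA, read 7.52, 7.44, 7.16 and 7.08, and Hsd17b10, a short-chain dehydrogenase of mitochondria, 11.00, 10.49, 10.88 and 10.47. On KO array 1, 15 of 15 tested genes of this list were below WT low-fat, with a median of −0.24. The oxidation enzymes among the members were below it in 17 of 17, and 77.6% of all tested genes were. On the other arrays the list was mixed. Above WT low-fat were 4 of 15 on the WT high-fat array and 4 of 15 on KO array 2, with medians of −0.18 and −0.31. Acacb and Hsd17b10 were low on those arrays, on which Cpt1a was high. The thiolase gene Acaa2 was high on them as Cpt1a was, at 10.80, 11.17, 10.33 and 10.98, and so was the acetyl-CoA synthetase gene Acss1, at 7.23, 7.53, 6.58 and 7.50.

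In peroxisomes the thioesterase gene Acot4 stood apart, at 7.42 on the WT low-fat array, 6.27 on the WT high-fat array, 7.01 on the first KO array and 6.24 on the second, or 2.23-fold lower on the high-fat diet. The branched-chain oxidation gene Phyh read 10.89, 10.39, 10.75 and 10.40 in the same order, again low on the WT high-fat array and KO array 2. For fatty acid uptake, the very-long-chain acyl-CoA synthetase Slc27a2 read 6.39, 7.67, 7.16 and 6.54, 2.44-fold higher on the high-fat diet, and the fatty acid-binding protein Fabp3 5.21, 5.86, 5.54 and 5.92. Of the ketone body genes, Oxct1, which lets tissues use ketones, ranged from 9.71 on KO array 1 to 10.27 on the WT high-fat array.

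Further thermogenic genes differed in their order of arrays. Otop1, a proton channel described in brown fat, read 5.34 on the WT low-fat array, 7.55 on the WT high-fat array, 5.13 on the first KO array and 7.13 on the second, and the beige marker Cited1 7.22, 5.73, 9.58 and 4.83. Cox8b, the cytochrome oxidase isoform of muscle and brown fat, read 9.66, 8.89, 9.35 and 9.08, and the white and beige depot gene Hoxc9 7.08, 6.37, 6.58 and 6.47, both highest on WT low-fat as Cidea was. In this list of 22 tested genes, 3 were at least 1.5-fold higher and 4 lower on the high-fat diet. Of all 11292 tested genes 872 were higher and 431 lower by that size. Elovl3, Zic1 and Lhx8, markers of brown fat, were below the level filter with 10 others.

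Among other regulators, Irf4, a partner of PGC-1alpha in thermogenic transcription, read 7.43 on the WT low-fat array, 6.80 on the WT high-fat array, 7.31 on the first KO array and 6.65 on the second. Sirt3, the mitochondrial deacetylase that activates oxidation enzymes, read 7.60, 7.35, 7.50 and 6.89, and Tfam, which maintains mitochondrial DNA, 6.77, 6.73, 6.27 and 6.57. Prkaa2, a catalytic subunit of the energy sensor AMPK, read 7.54, 7.69, 6.88 and 7.64, low on KO array 1 alone. Of the PPAR targets, Plin2, a coat protein of lipid droplets, read 11.62, 12.40, 11.34 and 12.26, high on the same 2 arrays as Cpt1a. The fatty acid hydroxylase gene Cyp4a14 read 6.05, 6.84, 6.32 and 5.44, highest on WT high-fat and lowest on KO array 2. Vnn1, a pantetheinase, was lower on all 3 other arrays than on WT low-fat, at 9.65 against 9.04, 8.89 and 8.85; its KO difference of −0.78 had an adjusted p = 1 in limma.

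**Figure D4:**
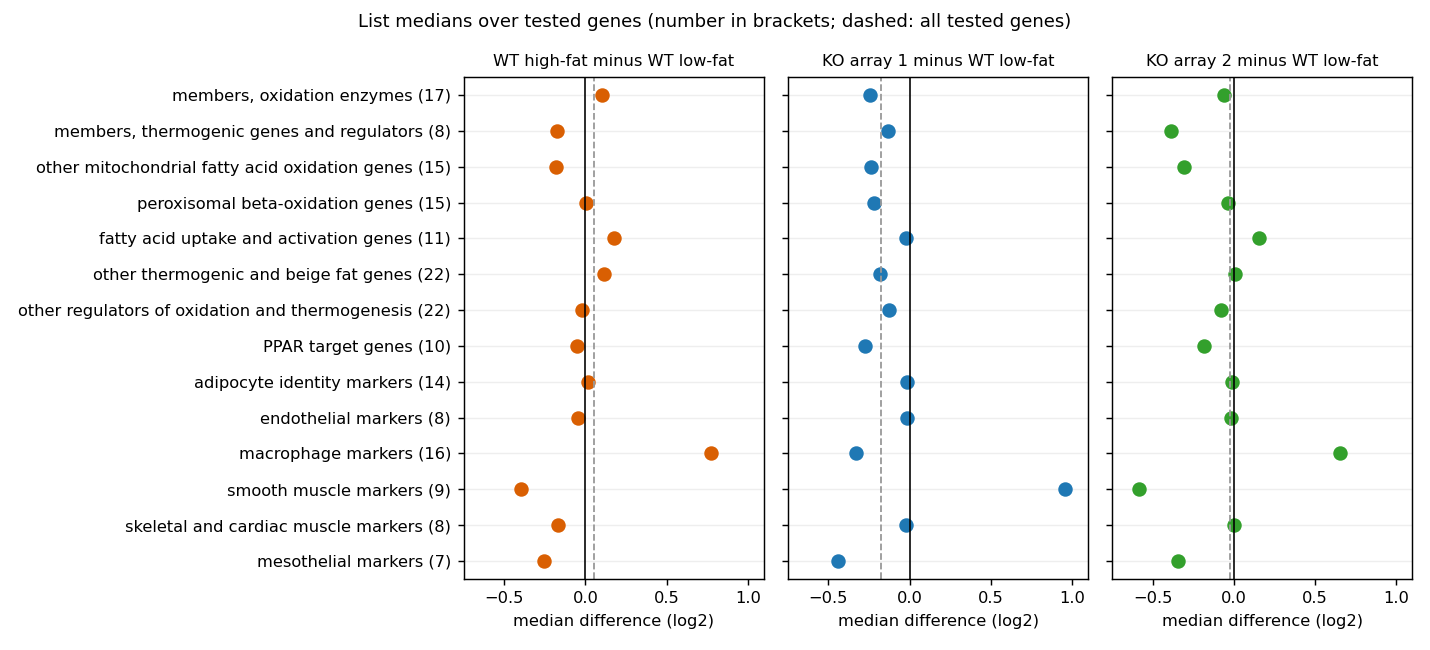
Median log2 difference from the WT low-fat array over the tested genes of each list (number of genes in brackets) for the WT high-fat array, KO array 1 and KO array 2; the dashed line is the median of all 11292 tested genes. The oxidation enzymes lie at 0.10, −0.25 and −0.06, close to the dashed line in each panel, and the macrophage and smooth muscle markers lie farther out; the epididymal and ketone body lists are not drawn.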

How the data were processed

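Epididymal fat RNA was read on 4 whole-transcript arrays, 100 ng per array. The authors deposited 1 linear intensity per probe set and array, made with the robust multi-array average (RMA) and R 2.15.0, as the submitters' processing notes record, with the build and annotation release not given in the sources used here. Intensities ran from 5.71 to 20092; their log2 was taken without further normalization.

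Of 35556 probe sets, 21218 had 1 symbol in the platform annotation, 1881 several and 12457 none listed. Per gene the probe set with the highest mean was kept (18820 genes), and the 11292 genes at or above the 40th percentile (5.45) were tested. KO and WT low-fat were compared with limma 3.58.1 in R 4.3.3 (a mean per group, eBayes, two-sided, Benjamini-Hochberg), with 1 residual and 4.62 prior degrees of freedom, so that each WT group was taken to have the spread of the KO pair. With a single array on each diet, diets were compared by size only, at 1.5-fold. Columns not used numbered 0. The fit was tested on simulated data. The members and lists were chosen with earlier results of these data known. Named genes were the members, Cd1d1 and, from each other list, some of the 4 tested genes with the largest difference between the diets and the 4 with the largest between the KO mean and WT low-fat; Adipoq, Acaa2 and Acss1 were named after their values were seen. Alternatives were the probe set rule, centring, quantile normalization, the level filter, the variance model, the size threshold and each KO array left out. Figures used matplotlib 3.10.9 in Python 3.11.15.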

Additional observations from a re-analysis of the deposited data

How the results depend on the processing

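No member passed limma's threshold for KO against WT low-fat under any of the 7 alternatives run, and the lowest unadjusted p was 0.0612 (Ppargc1a, without a level filter). The number of all genes past it, 5, became 3 with the mean of a gene's probe sets, 3 after quantile normalization, 2 with the filter at the 60th percentile and 0 without a filter, while it was 6 after centring, 5 with a variance trend and 4 with robust variances. Members apart on both KO arrays numbered 0, and 3 at a difference of 25%; leaving out each KO array in turn gave 1 (without KO array 2) to 5 (without KO array 1), as values with no test since no residual degree of freedom was left, and for the same reason the limma counts were not run without a KO array. Over all 31 members, with those below the level filter, 2 were apart between the diets, 0 at 2-fold and 9 at 25%. Between the KO arrays 5 were, with Esrrg among them, 0 at 2-fold and 11 at 25%. Shares of all tested genes at 2-fold and 25% were not counted, so the member counts at these thresholds have no background. Centring the arrays moved the members' median for the KO mean against WT low-fat from −0.13 to −0.0225 and between the KO arrays from 0.10 to −0.0915, while all tested genes moved from −0.09 to 0.02 and from 0.14 to −0.05. Under the probe set rule, centring and quantile normalization the sign held for 27 of 31 members between the diets, 24 for KO against WT low-fat and 22 between the KO arrays; those that turned had differences of at most 0.06, 0.09 and 0.19. No paired analysis was possible because only the KO arrays carry replicate numbers. Levels near the floor limit what can be said of Ucp1, Dio2, Tbx1, Tmem26 and Esrrg.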
